A study of Mus musculus with 6 samples.

Results

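Genes for inhibitors of proteases were examined in 6 mouse prostate samples, 2 from intact and 4 from castrated animals. The genes were chosen by symbol: serpins, numbered Spink and Wfdc genes, Slpi, Spint1, Spint2, Cst3 and Cst6, with pseudogenes (names with -ps) left out. This gave 97 of the 24421 genes in the tables, of which 77 had at least 1 read and 20 had none. All 6 samples carry the PB-Cre4 transgene, in which a probasin promoter drives Cre recombinase in prostate epithelium, together with the same loxP-flanked alleles for Cre to act on. The deletion made in this way is therefore common to both groups, and no sample without it was analysed here. Castration, marked Cx in the labels, removes the main source of androgens. Neither the age of the animals nor the time since surgery is given, and the labels do not say that each sample is a separate animal, so the p-values measure only how far these samples spread, and that spread may be technical.

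Protease inhibitors bind proteases and block them, and each family does so with its own fold. Serpins offer a loop that the protease cuts and is then trapped by. Clade A serpins are mostly secreted, clade B serpins mostly stay inside the cell, and a few serpins, such as the collagen chaperone Serpinh1, inhibit no protease. Kazal (Spink), WAP (Wfdc and Slpi) and Kunitz (Spint) domains are small and held together by disulphide bonds, and cystatins (Cst) block cysteine proteases. In the prostate and other glands these proteins are secreted with, or sit on the same cells as, the serine proteases they control.

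The samples held from 43679297 to 59170793 reads assigned to genes. Levels are given as rescaled CPM (the deposited CPM, counts per 1000000 reads, divided by a size factor per sample), and tests as limma fits over the 13898 genes that reached a CPM of 1 in 2 or more samples. The same 13898 genes served as background. Fkbp5, a gene induced by androgen, was at 251 to 254 in intact and 29.7 to 34.1 in castrated samples. All 10 luminal epithelial markers had reads in these samples, summing to 9322 to 9524 in intact and 6521 to 9812 in castrated samples. Seminal vesicle genes, 4 of 8 with no read, summed to at most 0.161, and liver genes, 2 of 8 with no read, to at most 9.27. Log2 values of castrated samples correlated with each other at 0.941 to 0.988 and with intact samples at 0.941 to 0.952. Castrated sample 4 stood apart from castrated samples 1 to 3 in many genes, and values without it are given where they differ.

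Of the 77 genes with reads, 30 could be tested. In castrated samples 4 fell, Spink1, Spink5, Wfdc12 and Wfdc3, and 0 rose (limma, Benjamini-Hochberg adjusted p under 0.05). Over all tested genes 1.27% were called lower and 0.698% higher, 1.97% in all. Spink1, Wfdc12 and Wfdc3 reached the filter through intact samples alone and so had to differ, so that the count over tested genes cannot be read as support. At an unadjusted p under 0.05 there were 11 lower and 2 higher, against 8.06% and 7.84% of all tested genes. On the reads recovered from the CPM values edgeR called 3 lower and 0 higher, and DESeq2 6 lower and 0 higher, against 1.07% and 0.389% of tested genes in edgeR (1.46% in all) and 4.54% and 4.76% in DESeq2 (9.3% in all). The count of 4 was 0 without intact sample 1, 1 without intact sample 2, 2 without castrated sample 1, 3 without castrated sample 2, 1 without castrated sample 3 and 10 without castrated sample 4. The calls over all 13898 genes changed likewise, from 274 to 19, 19, 77, 83, 46 and 1047 in the same order. Groups did not overlap for 10 of the 30 with lower and 3 with higher castrated values, against 13.2% and 13.4% of all tested genes. The median log2 difference of the 30 was -0.35, and that of all tested genes 0.00. The 3 edgeR calls were Spink1, Wfdc12 and Wfdc3. They are also among the 6 DESeq2 calls, the 11 at an unadjusted p under 0.05 and the 10 without overlap. These counts and the median therefore cannot be read as support either. The plot of log2 differences shows them by family.

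**Figure D1:**
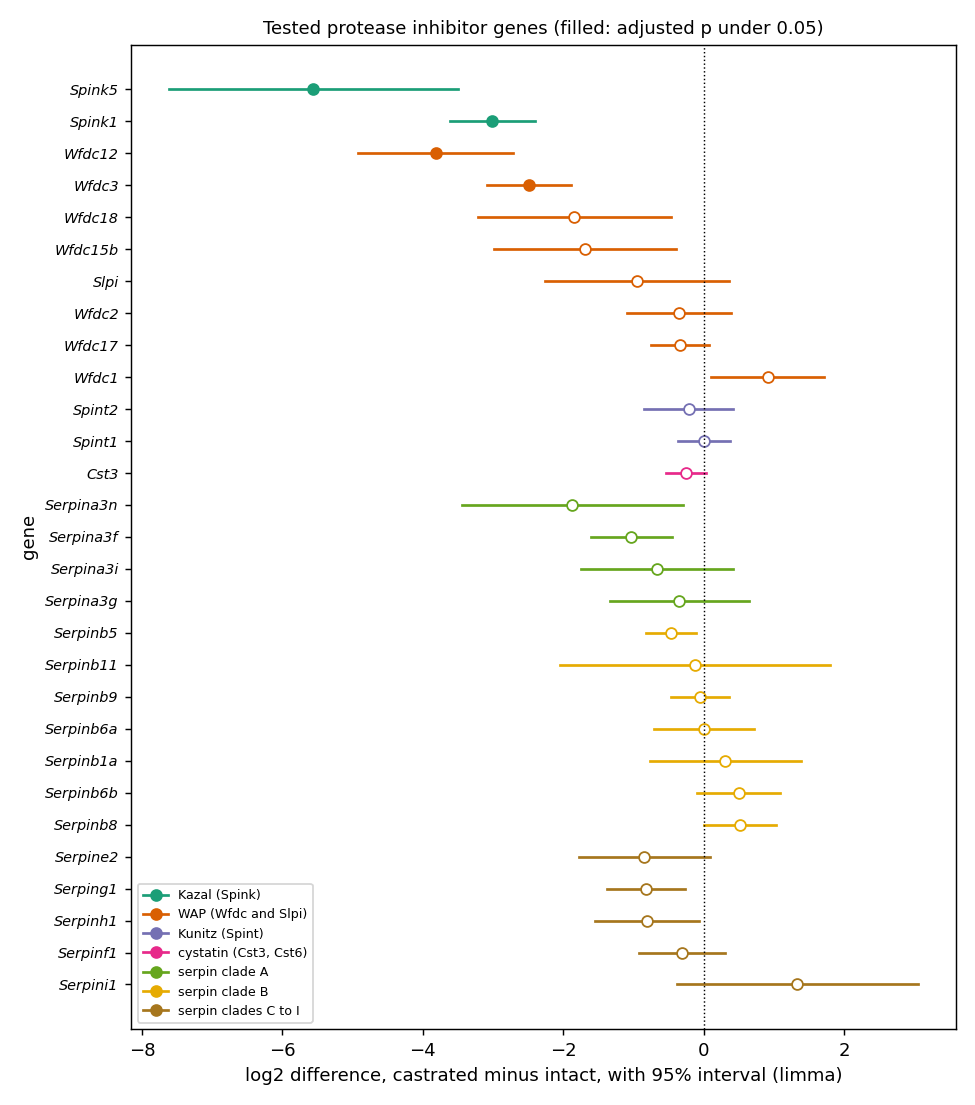
Log2 difference between castrated and intact samples for 29 of the 30 tested genes, grouped by family, with the 95% interval from limma. Filled points mark the 4 called genes, all of the Kazal and WAP families: Spink5 at -5.56, Wfdc12 at -3.82, Spink1 at -3.01 and Wfdc3 at -2.49.

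Both tested Kazal genes fell. Spink5 encodes a secreted protein with many Kazal-type domains that restrains kallikreins in stratified epithelia. Its level was 264 and 133 rescaled CPM in intact samples 1 and 2, against 1.86, 16.1, 2.81 and 1.47 in castrated samples 1 to 4. Every castrated value lay below both intact values, and castrated sample 2 stood above the other 3. The log2 difference was -5.56, with an SE of 0.86 and a 95% interval of -7.62 to -3.50, a 47.1-fold fall (limma adjusted p = 0.0359). Leaving out castrated sample 2 made it 75.8-fold (limma adjusted p = 0.00597). Leaving out either intact sample, castrated sample 1 or castrated sample 3 ended the call (limma adjusted p = 0.24, 0.173, 0.0890 and 0.107), and edgeR made none (adjusted p = 0.0741). DESeq2 gave Spink5 no adjusted p.

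Castrated sample 2 also held the most RNA of squamous differentiation genes, a list on which all 12 genes had reads. These summed to 1730 rescaled CPM there, against 104, 325 and 487 in castrated samples 1, 3 and 4 and 287 and 166 in intact samples. Basal epithelial genes, all 11 with reads, summed to 4188 in castrated sample 2, against 1196, 1459 and 3550 in the others and 4624 to 4898 in intact samples. Their part in the level of Spink5 was not tested. These are whole-tissue samples, in which fewer cells of a type and less RNA per cell cannot be told apart.

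Spink1, an inhibitor of trypsin secreted by exocrine glands, was far less abundant. Its level was 3.25 and 3.99 rescaled CPM in the intact samples. In castrated samples it was at 0.0190, 0, 0.0175 and 0, that is 1, 0, 1 and 0 reads. The intact samples together had 368 reads, and the depth-corrected ratio of reads, intact over castrated, was 404 with an exact 95% binomial interval of 111 to 3351, which covers counting error only. The limma log2 difference of -3.01 (adjusted p = 0.00818) understates this because of the pseudocount. The call was lost without intact sample 1 or 2 (limma adjusted p = 0.0652 and 0.0762) and kept in the other 4 fits that left out a sample. Spink1 and Spink5 share chromosome 18 with Spink6, Spink10, Spink12, Spink13 and Spink14, which had from 1 to 27 reads over all 6 samples.

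Spink4, a Kazal gene of goblet cells, had 167 reads in intact sample 2 but 0 in intact sample 1. In castrated samples it had 0, 1, 4 and 0 reads, so its presence rests on intact sample 2. Spink2 and Spink8 had 13 and 105 reads in all, in both groups. None of these 3 passed the filter.

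**Figure D2:**
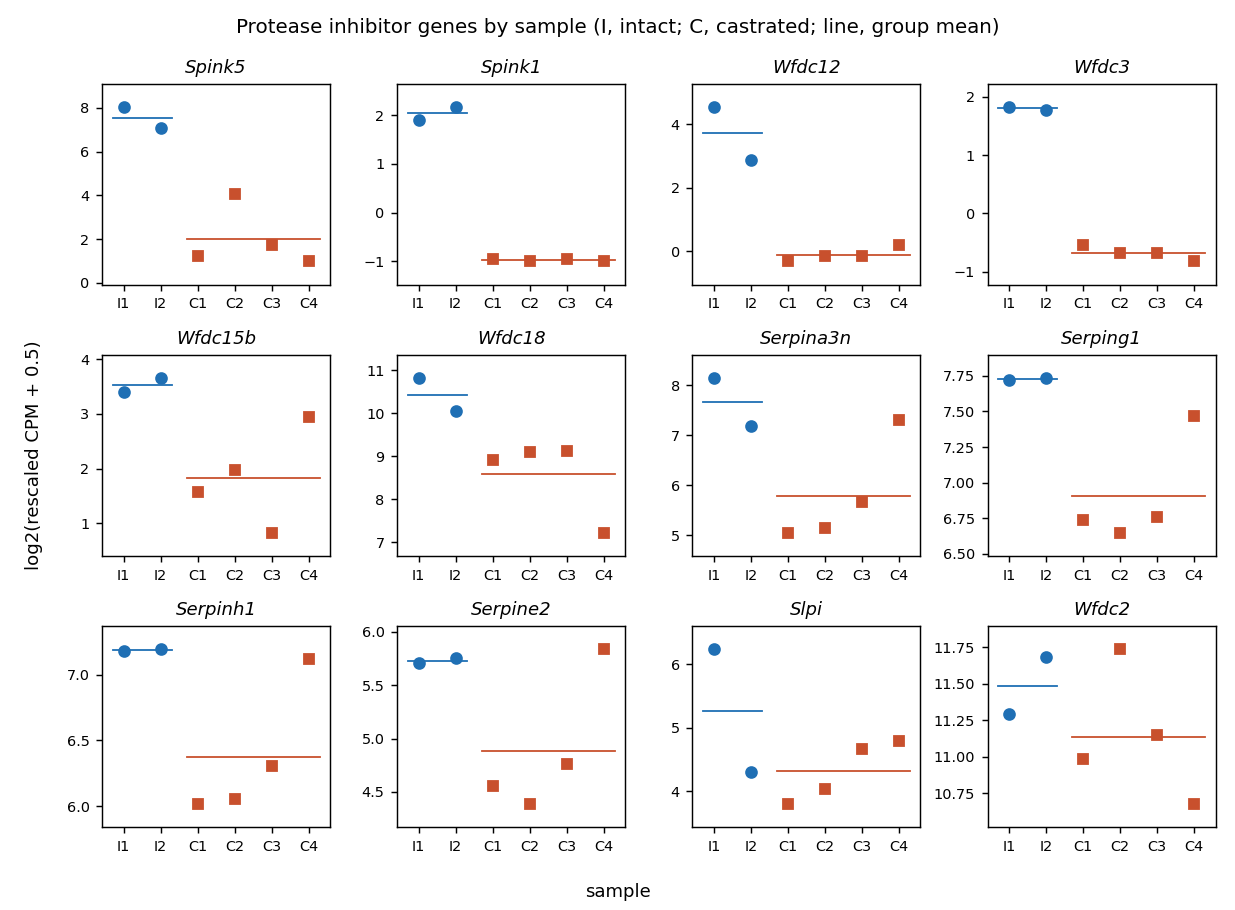
Log2(rescaled CPM + 0.5) of 12 genes in each sample, with intact samples as circles, castrated samples as squares and group means as lines. In the top row the groups are far apart, whereas for Serpina3n, Serpinh1 and Serpine2 castrated sample 4 lies near or within the intact range.

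WAP genes lie in groups in the genome, and the largest spans 570 kb of chromosome 2 (164176327 to 164745931, GRCm38). It holds 15 of the WAP genes examined. Of these 11 had reads and 5 were tested, Wfdc12, Wfdc15b, Slpi, Wfdc2 and Wfdc3, of which Wfdc12 and Wfdc3 passed the filter through intact samples alone. Wfdc12 (164189231 to 164190608) encodes a small secreted protein with a single WAP domain. Its level was 23.0 and 6.87 rescaled CPM in intact samples 1 and 2, against 0.303, 0.412, 0.403 and 0.644 in castrated samples. The groups did not overlap, and intact sample 1 was well above intact sample 2. Wfdc12 fell 14.1-fold (log2 difference -3.82, SE 0.46, limma adjusted p = 0.0184), which became 7.90-fold without intact sample 1 (limma adjusted p = 0.0806) and 25.2-fold without intact sample 2 (limma adjusted p = 0.0277). Its reads, 1379 in intact and 102 in castrated samples, gave a depth-corrected ratio of 29.7 (interval 24.3 to 36.7), and the fold was 33.6 in edgeR and 33.7 in DESeq2 (adjusted p = 0.0138 and 8.43e-17). The call was also lost without castrated sample 1, 2 or 3 (limma adjusted p = 0.0585, 0.0581 and 0.0642). An antisense gene covers 16.1% of its exon bases in the annotation, and the sources used here do not say whether the authors counted by strand.

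Wfdc3 (164731180 to 164745931), which encodes a protein with several WAP domains, was even between replicates. Its intact values were 3.06 and 2.93 rescaled CPM and its castrated values 0.190, 0.125, 0.123 and 0.0644. All castrated values lay far below both intact values. It fell 5.599-fold in limma (log2 difference -2.49, SE 0.25, adjusted p = 0.0106), while its reads, 299 in intact and 28 in castrated samples, gave a depth-corrected ratio of 23.5 (interval 15.9 to 35.9). Leaving out intact sample 1 or 2 or castrated sample 3 ended the call (limma adjusted p = 0.0969, 0.0887 and 0.0518).

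Wfdc15b (164214454 to 164221660), another small WAP gene, stood at 9.99 and 12.1 rescaled CPM in the intact samples. In castrated samples 1 to 4 it was at 2.48, 3.42, 1.28 and 7.21. The groups did not overlap, with castrated sample 4 nearest to the intact pair. The log2 difference of -1.69 (interval -2.98 to -0.40) did not pass (limma adjusted p = 0.186), and passed at -2.06 without castrated sample 4 (limma adjusted p = 0.0257). Wfdc5 of the same group, named after its values were seen, had 14 and 16 reads in intact samples and 0, 2, 1 and 0 in castrated ones. It lay below the filter, and limma with no filter called it lower. Wfdc15a had 6 reads over both intact samples and 1 over all castrated ones.

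Slpi (164354070 to 164389095), the secretory leukocyte protease inhibitor of mucosal surfaces, did not separate the groups. Intact samples 1 and 2 were at 74.9 and 19.3 rescaled CPM, whereas castrated samples were at 13.5, 15.9, 24.9 and 27.2. A single intact sample was high, and the other lay among the castrated values. The log2 difference was -0.95 (interval -2.26 to 0.35, limma adjusted p = 0.472). It was 0.01 without intact sample 1 and -1.91 without intact sample 2.

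Wfdc2 (164562413 to 164568510), an epithelial WAP protein also used as a tumour marker and first described in the epididymis, was the most abundant of all the genes examined. Its level was 2507 and 3288 rescaled CPM in the intact samples, against 2022, 3410 (castrated sample 2), 2269.7 and 1636 in castrated samples. Ranges overlapped widely, with a log2 difference of -0.35 and an interval of -1.10 to 0.39 (limma adjusted p = 0.658). In each sample Wfdc2 alone took from 31.2% to 49.9% of the summed level of the 77 genes, which itself ran from 7813 to 8031 in intact and from 4241 to 6837 in castrated samples.

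A smaller WAP group on chromosome 11 (83703991 to 83752642) holds Wfdc17, Wfdc18 and Wfdc21. Wfdc18 (83709015 to 83711348), which encodes an extracellular proteinase inhibitor of mammary and other glands, was the next most abundant by length. Its level was 1807 and 1061 rescaled CPM in the intact samples, against 482, 551, 558 and 149 in castrated samples 1 to 4. All castrated values were below both intact ones, and castrated sample 4 was the lowest. The log2 difference of -1.84 (interval -3.21 to -0.47) did not pass in limma (adjusted p = 0.179) or edgeR (adjusted p = 0.161). It passed in DESeq2 (adjusted p = 0.00590), and in limma without castrated sample 4 at -1.39 (adjusted p = 0.0235). Wfdc17, a WAP gene of activated macrophages, was at 34.1 and 22.7 in intact and 21.3, 21.3, 23.0 and 22.1 in castrated samples. Wfdc21 went the other way in reads per sample, with 5 and 10 in intact and 47, 37, 79 and 34 in castrated samples, but lay below the filter. Wfdc1 on chromosome 8 (119666365 to 119688222), a secreted WAP protein of stroma, was at 0.840 and 2.01 in intact and 3.58, 3.71, 2.44 and 2.27 in castrated samples, without overlap (log2 difference 0.91, limma adjusted p = 0.253).

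The bases upstream of the RefSeq start (assembly GRCm38.p6) are shown for Wfdc12 and Wfdc3, the called genes with a window examined (250 bases upstream). They are also shown for 3 of the genes that passed only without castrated sample 4 among the fits that left out a sample. The regions of genes with low castrated values can thus be compared. Of the 30 tested genes 24 had a window. Spink1, Spink5, Wfdc1, Serpinb1a and Serping1 are among the 6 without one. Capitals mark AGAACA on either strand (TGTTCT), the hexamer bound by androgen and glucocorticoid receptors, and TATAAA on either strand, the TATA box. Bases that GENCODE places in an exon of the gene were left off the end of the first pair. The RefSeq start of Wfdc3 lies inside the span that GENCODE gives the gene.
Wfdc12: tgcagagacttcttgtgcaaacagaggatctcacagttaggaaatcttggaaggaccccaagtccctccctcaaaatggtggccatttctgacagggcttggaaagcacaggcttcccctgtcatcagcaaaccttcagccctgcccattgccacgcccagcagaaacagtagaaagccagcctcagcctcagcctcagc
Wfdc3: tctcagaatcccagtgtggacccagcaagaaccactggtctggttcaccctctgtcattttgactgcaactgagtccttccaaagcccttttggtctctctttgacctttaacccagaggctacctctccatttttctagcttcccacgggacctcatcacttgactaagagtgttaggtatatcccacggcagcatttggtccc
Wfdc15b: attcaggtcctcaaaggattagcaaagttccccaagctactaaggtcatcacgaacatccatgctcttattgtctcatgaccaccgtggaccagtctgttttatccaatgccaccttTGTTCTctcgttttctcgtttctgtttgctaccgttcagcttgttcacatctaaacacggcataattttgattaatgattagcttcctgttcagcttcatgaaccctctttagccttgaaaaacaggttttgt
Wfdc18: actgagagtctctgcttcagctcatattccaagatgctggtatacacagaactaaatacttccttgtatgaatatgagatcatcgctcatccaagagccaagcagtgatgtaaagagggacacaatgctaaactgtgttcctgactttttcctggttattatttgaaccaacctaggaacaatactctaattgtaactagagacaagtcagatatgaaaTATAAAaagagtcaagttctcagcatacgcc
Serpina3n: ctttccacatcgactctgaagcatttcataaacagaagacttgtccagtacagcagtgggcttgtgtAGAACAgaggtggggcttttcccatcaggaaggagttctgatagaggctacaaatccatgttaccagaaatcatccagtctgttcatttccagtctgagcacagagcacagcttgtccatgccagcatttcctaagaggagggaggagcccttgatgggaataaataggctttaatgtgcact
The windows are chr2:164190609-164190808 (minus strand), chr2:164743313-164743517 (minus), chr2:164221664-164221913 (minus), chr11:83708754-83709003 (plus) and chr12:104406458-104406707 (plus), each written 5′ to 3′ along the gene. The hexamer begins 133 bases before the start in Wfdc15b and 183 before it in Serpina3n, and TATAAA 31 bases before it in Wfdc18. Neither motif occurs in the full windows of Wfdc12 and Wfdc3. The same holds for Serpine2 and Serpinh1, not shown, which also passed only without castrated sample 4 among the fits that left out a sample. Of the 27 windows of the 24 genes 5 held the hexamer, and 16.1% of all 32851 RefSeq windows of 250 bases held one. The androgen response element proper, the hexamer and its inverted copy with 3 bases between, occurred in 0 of the 24 and in 0.00913% of all windows. TATAAA occurred in 2 of the 24 and in 12.4% of all windows. A match describes these letters only, and its absence says nothing about binding elsewhere.

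The Kunitz genes Spint1 and Spint2 encode membrane inhibitors of matriptase and hepsin, and both were abundant and showed no call. Spint1 (chromosome 2, 119237362 to 119249527) was at 318 and 417 rescaled CPM in intact and 343, 430 (castrated sample 2), 340.4 and 359 in castrated samples. Its log2 difference of 0.01 had an interval of -0.36 to 0.38 (limma adjusted p = 0.990). Spint2 (chromosome 7, 29256323 to 29281912) was at 1025 and 1134 in intact and 1236, 998, 957 and 628 in castrated samples, the lowest in castrated sample 4. Its log2 difference was -0.22 (interval -0.85 to 0.41, limma adjusted p = 0.761).

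Cst3, the secreted cystatin C made by most cells, was abundant and even. Its level was 294 and 325 rescaled CPM in the intact and 301, 241, 252 and 248 in castrated samples, so the ranges overlapped through castrated sample 1 (log2 difference -0.25, interval -0.54 to 0.04, limma adjusted p = 0.377). Cst6, a cystatin of skin, was below the filter with 57 reads in intact and 177 in castrated samples, 90 of them in castrated sample 2.

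Clade A serpins were represented by the Serpina3 group, relatives of antichymotrypsin, on chromosome 12. Of 24 clade A genes 17 had reads and 4 were tested. Of these limma and edgeR called 0, and DESeq2 called 1 lower, against 4.54% of all tested genes. At an unadjusted p under 0.05 there were 2 lower, against 8.06%. All 4 log2 differences were below 0, as were those of 6942 of all 13898 tested genes. Serpina3n (104406729 to 104414329), an acute-phase inhibitor made by many tissues, stood at 282 and 144 rescaled CPM in the intact samples, against 32.5, 34.7, 50.3 and 158 in castrated samples 1 to 4. Castrated sample 4 lay between the intact samples and the other 3 lay well below both. The log2 difference was -1.87 (interval -3.45 to -0.30, limma adjusted p = 0.226). Without castrated sample 4 it was -2.38, a 5.20-fold difference (limma adjusted p = 0.0129).

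Serpina3f (104214544 to 104221129) was at 2.29 and 2.63 in intact and 0.683, 1.07, 1.09 and 0.966 in castrated samples, without overlap (log2 difference -1.03, limma adjusted p = 0.0953; adjusted p = 0.00871 in DESeq2). Serpina3g was at 19.96 and 16.4 in intact and 10.2, 13.9, 9.92 and 28.0 in castrated samples, the highest value being castrated sample 4. Serpina3i stayed at or below 2.16 throughout. These genes share sequence: 8.15% of the 50-base words in Serpina3f transcripts, 11.99% in Serpina3g, 16.1% in Serpina3h and 14.5% in Serpina3i also occur in transcripts of other genes, against 2.41% in Serpina3n, so reads may be divided among them.

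Below the filter, Serpina3m had 145 and 53 reads in intact samples and 0, 0, 4 and 0 in castrated samples, a depth-corrected ratio of 109 (exact 95% interval 41.8 to 403). Serpina3h had 57 and 57 reads in intact and 16, 26, 19 and 59 in castrated samples, of which castrated sample 4 came closest to the intact level. Serpina1b and Serpina1e, antitrypsin genes that in mice are liver products, had 35 and 1 reads in intact and 14 and 43 in castrated samples. They share 27.2% and 16.6% of their 50-base words with other genes, and Serpina1a shares 40.8%.

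Clade B serpins, which mostly act inside cells, lay on both sides of no difference. Of 27 genes 20 had reads and 7 were tested, 3 with log2 differences below 0 and 4 above. limma, edgeR and DESeq2 called 0 of the 7. At an unadjusted p under 0.05 there were 1 lower and 1 higher, against 8.06% and 7.84% of all tested genes. Serpinb5 (chromosome 1, 106861173 to 106883348), the epithelial gene maspin, was at 119 and 99.4 rescaled CPM in intact and 76.4, 86.7, 87.8 and 65.3 in castrated samples. The ranges did not overlap, but the difference was small (log2 -0.47, interval -0.83 to -0.11, limma adjusted p = 0.190). The sums of basal epithelial markers, given above, were lower in every castrated sample. Of the 11 tested markers 2 were called lower in limma, against 1.27% of all tested genes. The part of these markers in Serpinb5 was not tested.

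Serpinb1a (chromosome 13, 32842092 to 32851185), an inhibitor of neutrophil elastase, ranged widely within the castrated group. It was at 430.1 and 304 in intact samples, against 729.7, 384, 604 and 234 in castrated samples 1 to 4 (log2 difference 0.30, interval -0.77 to 1.38, limma adjusted p = 0.811). Of 7 tested neutrophil genes limma called 4 higher, against 0.698% of all tested genes, and edgeR 2, against 0.389%. The neutrophil protease genes Elane and Ctsg had 0 reads and 2 reads over all 6 samples. The list summed to 3237 to 3505 in intact and 983 to 3200 in castrated samples, mostly from Ltf at 3207 to 3437 and 751 to 3000, a gene that secretory epithelia also express. Its part in Serpinb1a was not tested.

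Serpinb11 (chromosome 1, 107361198 to 107380475) was at 39.9 and 63.4 in intact and 64.0, 77.7, 80.1 and 11.1 in castrated samples, with castrated sample 4 below every other sample (log2 difference -0.12, interval -2.04 to 1.80). Serpinb6a was at 185 and 165 in intact and 222, 176, 226 and 109 in castrated samples, and Serpinb9, which protects cells from granzyme B, at 83.6 and 74.4 and at 71.4, 86.6, 88.5 and 60.8. Neither separated the groups. An antisense neighbour or neighbours cover 29.3% of the exon bases of Serpinb6a. Serpinb8 and Serpinb6b were higher in every castrated sample than in either intact sample, at 14.9 to 21.3 against 9.502 to 13.4 and at 14.8 to 26.7 against 12.6 to 14.4, without a call (limma adjusted p = 0.306 and 0.395). Serpinb3a, a squamous cell gene, had 32 of its 33 reads in castrated sample 2.

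Among the other serpins, 3 genes of stroma and plasma shared a pattern in which castrated samples 1 to 3 were low and castrated sample 4 was at or near the intact level. Serping1 (chromosome 2, 84765387 to 84775444) encodes the inhibitor of the first complement component. Its level was 211 and 212 rescaled CPM in the intact and 106, 99.8, 108 and 177 in castrated samples, without overlap. The log2 difference of -0.83 (interval -1.38 to -0.27) did not pass in limma (adjusted p = 0.146) but passed in DESeq2 (adjusted p = 0.0358) and in limma without castrated sample 4 (log2 -1.01, adjusted p = 0.00374). Serpinh1 (chromosome 7, 99345376 to 99353239), the collagen chaperone, was at 145 and 146 in intact and 64.2, 66.1, 78.7 and 139 in castrated samples (log2 -0.81, limma adjusted p = 0.264; without castrated sample 4, log2 -1.06 and adjusted p = 0.00710). Serpine2 (chromosome 1, 79794197 to 79861180), a nexin that inhibits thrombin and urokinase, was at 51.7 and 53.4 in intact and 23.0, 20.4, 26.6 and 56.6 in castrated samples (log2 -0.85, limma adjusted p = 0.361; without castrated sample 4, log2 -1.16 and adjusted p = 0.00913).

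Summed fibroblast and endothelial genes were also low in castrated samples 1 to 3 and high in castrated sample 4. All 10 fibroblast genes had reads, and 0 of 10 were called in limma, edgeR or DESeq2. At an unadjusted p under 0.05 there was 1 lower, against 8.06% of all tested genes. Fibroblast sums were 1779 to 1926 in intact samples, 1058, 864 and 1433 in castrated samples 1 to 3 and 2068 in castrated sample 4. All 8 endothelial genes had reads, with 0 of 8 called in these tools (3 lower at an unadjusted p under 0.05, against 8.06% of all tested genes). They summed to 139 to 152 in intact samples, 89.3, 91.5 and 89.7 in castrated samples 1 to 3 and 152 in castrated sample 4. Smooth muscle genes went the other way, with sums of 263 to 268 in intact and 482, 524, 329 and 425 in castrated samples. Of the 8, limma and edgeR called 0. At an unadjusted p under 0.05 there were 5 higher, against 7.84% of all tested genes. DESeq2 called 5 higher, against 4.76%. Macrophage genes, all 12 with reads, were also highest in castrated sample 4, at a sum of 1271. They summed to 826, 889 and 842 in castrated samples 1 to 3 and to 891 to 1107 in intact samples. Of the 11 tested, limma and edgeR called 0 and DESeq2 called 2 lower, against 4.54% of all tested genes. The part of stromal cells or macrophages in these serpins was not tested.

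Serpinf1 (chromosome 11, 75409769 to 75422701), a secreted anti-angiogenic serpin, was at 47.3 and 53.9 in intact and 35.3, 29.99, 44.4 and 57.6 in castrated samples (log2 -0.31, limma adjusted p = 0.628). Serpini1, neuroserpin, was at 0.700 and 2.88 in intact and 13.2, 4.21, 3.59 and 2.01 in castrated samples, with the high value in castrated sample 1 (limma adjusted p = 0.436). Antithrombin (Serpinc1), the heparin cofactor Serpind1 and antiplasmin (Serpinf2), plasma serpins of the liver, had 26, 106 and 24 reads in all.

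**Figure D3:**
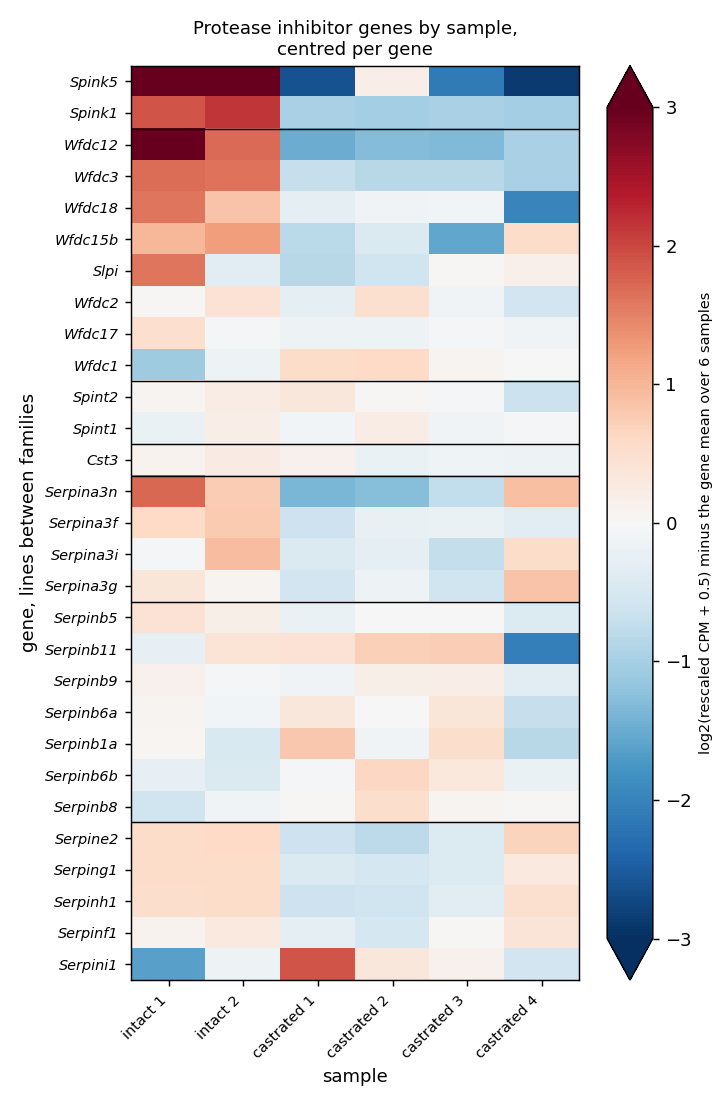
Log2(rescaled CPM + 0.5) of 29 of the 30 tested genes in the 6 samples, each row centred on its own mean, with lines between families. Castrated sample 4 departs from castrated samples 1 to 3 in both directions, with Serpina3n, Serping1, Serpinh1 and Serpine2 above them and Wfdc18, Serpinb11 and Spint2 below.

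Castrated sample 4 lay above the other 3 castrated samples in 11 of the 30 tested genes and below them in 14. Over all tested genes it lay above in 35.4% and below in 38.6%. On the log2 scale it exceeded the mean of the other 3 by 2.03 for Serpina3n, 1.49 for Wfdc15b, 1.27 for Serpine2, 0.99 for Serpinh1 and 0.75 for Serping1. It was below that mean for Serpinb11 (-2.67), Wfdc18 (-1.83), Serpinb1a (-1.24) and Spint2 (-0.75). The luminal markers summed to 6521 in it, the lowest of the 6 samples. Of the 4 called genes Spink5 differed there by -1.36 from the mean of the other castrated samples, and Spink1, Wfdc12 and Wfdc3 by at most 0.39 in either direction.

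Levels of different genes were compared per kb of exon in the GENCODE annotation (all isoforms merged). Wfdc2 stood highest, at 1435 to 2991 rescaled CPM per kb over the 6 samples, and in each sample no other gene was higher. Wfdc18 followed in intact samples at 869.8 and 1481, while its castrated values of 122 to 458 ran into those of Spint2 (138 to 271), Cst3 (190.0 to 257) and Serpinb1a (102 to 317). Spint1 came next at 115 to 155. Serping1, Serpina3n, Wfdc17 and Serpinh1 formed a middle group whose ranges overlapped, between 15.8 and 137. Spink5 was at 55.2 and 27.9 per kb in intact samples, the second of these within the range of Serpinb5 (23.7 to 43.2) and the first above it, and at 0.306 to 3.37 in castrated samples.

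**Figure D4:**
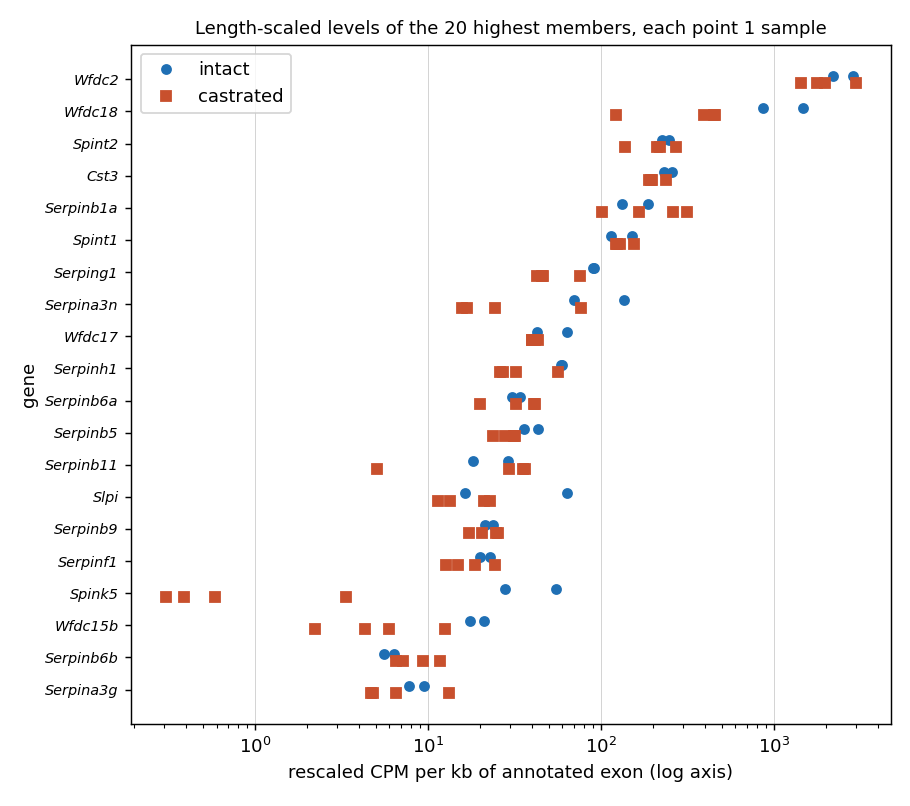
Rescaled CPM per kb of exon on a log axis for the 20 genes with the highest mean, each point 1 sample. Wfdc2 is highest in all 6 samples, and Spink5 has the widest gap between intact (27.9 and 55.2) and castrated samples (0.306 to 3.37).

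The remaining 47 genes with reads did not reach the filter, and 21 of them had fewer than 10 reads over all samples. For 12 of the 47 the groups did not overlap once corrected for depth, against 26.6% of all tested genes, which have more reads. Some of the 12 rest on very few reads, such as Spink12 with 1 and 3 in intact and 0, 0, 1 and 0 in castrated samples. Besides those given above, Serpinb6c had 14 and 9 reads in intact and 37, 22, 25 and 31 in castrated samples, and Serpind1 7 and 4 against 23, 17, 31 and 24. No test was made on these. For each of the 20 genes without reads, the 0 in a sample is compatible with a level of up to 3 reads, which is 0.0507 CPM in the deepest sample and 0.0687 CPM in the shallowest.

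Inhibitors of other families were taken from a list of 54 genes, of which 32 were tested. limma called 0, with 8 higher and 4 lower at an unadjusted p under 0.05, against 7.84% and 8.06% of all tested genes. edgeR called 0, and DESeq2 called 7 higher and 1 lower, against 4.76% and 4.54% of all tested genes. The list's median log2 difference was 0.03. Without castrated sample 4 limma called 8, in a fit that called 1047 of all 13898 genes. The stefin gene Csta1, a cystatin of the cytosol, was at 7.10 and 6.70 in intact and 85.0, 55.6, 67.2 and 9.999 in castrated samples (limma adjusted p = 0.185), and Stfa1 at 0.817 and 0.785 and at 10.8, 6.10, 10.7 and 2.85 (limma adjusted p = 0.0727). Both were higher in every castrated sample than in either intact one and lowest, among castrated samples, in the fourth.

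A list of 59 genes, called target proteases for short, was followed, with 37 of them tested. It holds proteases that these inhibitors block or whose activation they control, but also other genes, Mmp7 among them. In limma 2 rose and 3 fell, against 0.698% and 1.27% of all tested genes. The 3 with the smallest p were Mmp7, Tmprss11e and Prss2. The matrix protease Mmp7 fell from 1203 and 3274 rescaled CPM in intact to 20.2, 16.0, 10.6 and 23.1 in castrated samples (limma adjusted p = 0.00303). Prss2, a trypsin of the kind that Spink1 inhibits, rose from 1.61 and 0.384 to 15.002, 15.8, 10.2 and 30.3 (limma adjusted p = 0.0243). Tmprss11e, a membrane protease of squamous epithelia, went from 0.607 and 1.15 in intact to 6.58, 20.9, 11.4 and 13.1 in castrated samples (limma adjusted p = 0.0243). Without castrated sample 4 limma called 12 of the list and 1047 of all 13898 genes. Without intact sample 1 or 2 it called 1 of the list and 19 of all genes.

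The kallikreins that Spink5 is known to restrain in skin were nearly absent: Klk5 had 0 reads in every sample, Klk7 2 reads and Klk14 8 reads in all. Klk10, Klk11 and Klk13 were found almost wholly in castrated sample 2, at 1.40, 0.680 and 2.24 rescaled CPM against at most 0.0523 elsewhere. That sample also had the highest Spink5 of the castrated group. Matriptase (St14), the main target of Spint1 and Spint2, was at 586 and 561 in intact and 454, 447, 494 and 415 in castrated samples, without overlap or a call (log2 -0.34, limma adjusted p = 0.182). Its substrate and partner Prss8 was at 106 and 135 in intact and 166, 118, 125 and 80.6 in castrated samples, and hepsin (Hpn) at 39.0 and 48.4 and at 19.7, 32.6, 28.6 and 42.1. Both overlapped between groups. The plasminogen activators Plau and Plat, of which Serpine2 is an inhibitor, also overlapped, at 30.3 to 37.1 and 54.2 to 58.3 in intact and at 35.1 to 60.8 and 47.8 to 119 in castrated samples.

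Secretory genes of the prostate were low in castrated samples too. On a list of 10 such genes, 9 were tested and 5 fell, of which 1 is Spink1 itself, against 1.27% of all tested genes, with sums of 691 to 1002 rescaled CPM in intact and 9.66 to 111 in castrated samples. Within the castrated group the sums were 111, 44.1, 48.2 and 9.66 in samples 1 to 4. The part of secretory cell number in the fall of Spink1, Spink5, Wfdc12 and Wfdc3 was not tested. Luminal markers as a whole, with 1 of 10 called lower against 1.27% of all tested genes, spanned overlapping ranges, as given above.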

How the data were processed

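RNA was sequenced from 2 intact and 4 castrated mouse prostate samples. The authors deposited 1 table of CPM per sample, reads per 1000000 reads counted in genes. Per the submitters' processing notes TopHat2, HTSeq and edgeR were used with the genome build mm10; their settings and versions are not given in the sources used here. Every value was a whole multiple of the smallest above 0 (tolerance 1e-06), so reads could be recovered in 100% of values. CPM was divided by median-of-ratios size factors of 0.981 to 1.05. The values log2(rescaled CPM + 0.5) were tested with limma 3.58.1 (R 4.3.3) and a mean-variance trend, over genes that reached a CPM of 1 in 2 or more samples, with two-sided p-values adjusted by Benjamini-Hochberg. Log2 differences are castrated minus intact, and understate changes of low genes. On recovered reads, edgeR's quasi-likelihood test (4.0.16) and DESeq2 (1.42.0), and other pseudocounts, filters and scalings, each sample left out (keeping the tested genes) and the replicate number as a block were alternatives. Steps were tested on simulated data. Positions and exon lengths are from GENCODE M21 (GRCm38, the assembly mm10 names), in which all 97 symbols matched. The members and lists were chosen with earlier results of these data known. Named genes are the called ones, 13 chosen by name, the 10 most abundant, the 10 uncalled with the smallest p, the 5 largest differences without overlap, the 5 untested with most reads, and up to 3 called per other list. Other genes given, in the lists too, were chosen after their values were seen. One tested member, counted among the 30, is not reported here.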

Additional observations from a re-analysis of the deposited data

Results flagged for a closer look

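In 6 of the 27 castrated groups examined, 1 of the 4 castrated samples lay farther from the other 3 than Dixon's 95% limit allows. For normally distributed values chance gives this in about 1 in 20 groups, and the groups share the same 4 samples. The limit was applied to rescaled CPM, not to the log2 values used in the limma fits. Whether rescaled CPM is normally distributed was not tested, so the count of 6 cannot be weighed against that rate. Whether the flagged samples stand apart on the log2 scale was not tested either. Castrated sample 4 stood apart in 3 genes, Serpine2 at 56.6 rescaled CPM against 20.4 to 26.6, Serping1 at 177 against 99.8 to 108, and Serpina3n at 158 against 32.5 to 50.3. Castrated sample 2 stood apart for Spink5 at 16.1 against 1.47 to 2.81 and for Serpinb8 at 21.3 against 14.9 to 15.5. For Serpina3m castrated sample 3 was at 0.0701, which is 4 reads, and the others had 0, a pattern that passes the limit whatever its single value is.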

How the results depend on the processing

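The inhibitors called lower numbered 4 with both other pseudocounts, the deposited CPM and TMM factors, and were the same genes. With no filter there were also 4, with Wfdc5 in place of Spink5. The count was 2 with a CPM minimum of 5, which leaves out Spink1 and Wfdc3, 5 with no trend, 3 in edgeR, 6 in DESeq2, and 0 to 10 when 1 sample was left out. None was called higher in any of these fits. Over all genes 274 calls became 170 with no filter, 1293 in DESeq2 and 19 to 1047 with 1 sample left out. The share of higher calls was 97 of 274 in limma, 45 of 170 with no filter and 662 of 1293 in DESeq2. Other inhibitors went from 0 calls to 8 in DESeq2 and 0 to 8 with 1 sample left out. Target proteases went from 5 to 3 with no filter, 3 in edgeR, 9 in DESeq2 and 1 to 12 with 1 sample left out. Of 22 named and tested inhibitors, 18 kept their direction in every fit run. The others lay near 0 in at least one fit: Slpi ran from -1.91 to 0.0121 with 1 sample left out, Spint1 from -0.19 to 0.20 and was -0.0014 in edgeR, and Serpinb6a from -0.11 to 0.24. The cause of these changes was not tested.

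With the replicate number as a block, 7 inhibitors were called lower, of which 2 (Spink1 and Wfdc12) were among the 4. All genes gave 417 calls and other inhibitors 4, and Spint2 turned to 0.0419. Numbers 3 and 4 occur only in castrated samples. The difference in this fit therefore rests on samples 1 and 2 of each group, without castrated samples 3 and 4. An effect of the block on these calls cannot be told apart from the loss of those samples. Deviations of same-numbered samples correlated at 0.0755 (number 1) and 0.226 (number 2), and with 2 pairs the numbers are not shown to pair the samples. With 2 intact samples, each leave-out of one rests on a single intact sample that is assumed to vary like the castrated ones.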
